A study of Mus musculus with 6 samples.

Results

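A set of 6 genes that T cells use to receive or deliver costimulation was followed across kidney T cells: Cd28 and Icos of the immunoglobulin superfamily, Cd27, Tnfrsf9 (4-1BB) and Tnfrsf18 (GITR) of the tumour necrosis factor (TNF) receptor family, and Cd40lg, a TNF family ligand. They were chosen by name for their function, with earlier results of these data known. All 6 were present among the 32285 features of the count matrices. The T cells carried CD45 and an α/β T cell receptor and had been sorted by flow cytometry into CD4+, CD8+ and double negative (DN, CD4-/CD8-) fractions. Each of the 3 fractions was profiled by droplet single-cell RNA-seq from normal kidneys (control) and from kidneys after bilateral ischemia-reperfusion (IR), which gave 6 libraries and 1 library per group. All animals were wild-type male C57BL/6J mice of 7 to 8 weeks. In the IR groups both renal pedicles were clamped for 30 min and then released, and injury was followed by serum creatinine at 24 h. How many mice were pooled in a library and when the sorted cells were harvested were not given in the sources used here. With 1 library per group no test was run between libraries, nor any model across subsets and conditions, and each 95% interval below covers counting error only.

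A T cell that meets antigen needs further signals to divide, survive and make cytokines. CD28 and ICOS bind ligands of the B7 family on antigen-presenting cells and signal through phosphoinositide 3-kinase, and CD28 is displayed on most resting T cells whereas ICOS appears after activation. CD27, 4-1BB and GITR recruit TRAF adaptors that feed the NF-kB pathway. CD27 is present on naive T cells, 4-1BB is induced by antigen and is also found on regulatory T cells, and GITR is abundant on regulatory T cells. CD40 ligand works in the other direction: CD4+ helper T cells use it to engage CD40 on B cells, dendritic cells and macrophages.

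After filtering, 47942 cells remained, between 4042 and 10108 per library. Depth separated the conditions: the median cell held 6626.5 to 8365 unique molecular identifiers (UMIs, 1 per captured transcript) in the control libraries and 1450.5 to 2355.5 in the IR libraries. Levels are given in CPM (counts-per-million), in which a gene's UMIs from all cells of a library are scaled to that library's retained UMIs. Cd4 was at 210.4 and 146 CPM in the CD4 libraries and at or below 0.466 CPM in the others, and the 2 CD8 genes summed to 2238 and 1495 CPM in the CD8 libraries and to at most 6.27 CPM in the others, so each library carried the receptor of its label. The 8 myeloid markers summed to between 102 and 109 CPM in the control libraries and between 145 and 248 CPM in the IR libraries, with at most 2 of the 8 at 0 in a library. Cst3 made up most of each sum, at 92.7 to 101 CPM in control and 125 to 146 CPM in IR libraries, and S100a8 and S100a9 added 35.8 and 49.8 CPM in IR CD4 cells, where 21 barcodes held them. Member ratios stayed within their counting intervals, 54 of 54, when barcodes were removed by markers of other cell types in place of clusters. The control matrices named Cell Ranger 5.0.1 in their headers and the IR matrices 6.0.1, so condition and software version cannot be told apart. Libraries of the same condition shared 97 to 168 cell barcodes per pair, and 277 of the cells kept had such a barcode. Leaving these cells out moved none of the member ratios beyond its counting interval.

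RefSeq promoter sequence (GRCm38.p6, 250 bases before each annotated start) was at hand for Cd27, Tnfrsf18 and 2 starts of Tnfrsf9. Tnfrsf9 is the member whose level differed most between control and IR kidneys in CD4 and DN cells, and its letters are shown for that reason. Both strands were searched for the AP-1 motif TGANTCA, present in 6.75% of 32851 promoters, and for the NF-kB motif, GGG followed by any 2 bases and TTTCC, present in 1.41%. AP-1 and NF-kB are the transcription factors that costimulation and T cell receptor signals activate. The window before the Tnfrsf9 start at chr4:150927999 held each motif 1 time, and the other 3 windows held neither. The matches are printed 5′ to 3′ on the plus strand with the motif in capitals, first the AP-1 match at chr4:150927973-150927998 and then the NF-kB match at chr4:150927946-150927975.
Tnfrsf9 AP-1: ccctgctcagtTGAGTCAcaggtcct
Tnfrsf9 NF-kB: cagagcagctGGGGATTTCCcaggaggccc
The AP-1 letters begin 15 bases and the NF-kB letters 43 bases before the start, and the 2 matches do not overlap. A match describes the letters of the window and is not evidence of a bound factor.

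The immunoglobulin family members lie near each other on chromosome 1. In GRCm38, Cd28 spans chr1:60716800-60773359 and Icos spans chr1:60977927-61000320, both on the plus strand, and the inhibitory receptor gene Ctla4 lies between them, 114 kb from Cd28 and 62.1 kb from Icos. Cd28 was at 701, 367 and 537 CPM in control CD4, CD8 and DN cells and at 531, 324 and 618 CPM in IR CD4, CD8 and DN cells. The CD8 libraries were the lowest of all, control CD4 cells were the highest, and the intervals of control DN and IR CD4 cells overlapped. Icos was at 345, 104 and 326 CPM in control CD4, CD8 and DN cells and at 343, 129 and 385 CPM in the corresponding IR libraries. IR DN cells held the highest Icos level, the CD4 libraries of both conditions overlapped, and both CD8 libraries lay far below every other library. Across the 6 libraries the highest level was 2.17 times the lowest for Cd28 and 3.71 times for Icos.

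Cd40lg spans chrX:57212143-57224042 on the plus strand and had the widest range of the 6 genes. It was at 369.8, 37.2 and 373 CPM in control CD4, CD8 and DN cells and at 244, 12.1 and 260.1 CPM in IR CD4, CD8 and DN cells. DN and CD4 cells did not differ beyond the counting interval in either condition, although DN cells lack the CD4 co-receptor with which this ligand is usually associated. The CD8 libraries stood far below, and the highest level was 30.8 times the lowest.

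Of the TNF receptors, Tnfrsf9 spans chr4:150914562-150946102 and Tnfrsf18 spans chr4:156026164-156028895, both on the plus strand, and Cd27 spans chr6:125232622-125237010 on the minus strand. Tnfrsf18 lies 9.55 kb from Tnfrsf4, which encodes the costimulatory receptor OX40. Cd27 was at 159.9, 256 and 209.9 CPM in control CD4, CD8 and DN cells and at 133, 147 and 141 CPM in the IR libraries in the same order. Cd27 was the only member with its highest level in CD8 cells, and in the IR kidney its 3 levels were close together, with neighbouring intervals that overlapped. Tnfrsf9 was at 36.2, 21.4 and 32.9 CPM in control CD4, CD8 and DN cells and at 103, 41.0 and 101 CPM in the IR libraries. The IR CD4 and IR DN libraries overlapped and were the highest, while IR CD8 cells reached only the level of control CD4 cells. Tnfrsf18 was at 199.6, 89.8 and 212 CPM in control CD4, CD8 and DN cells and at 369.8, 114 and 369.6 CPM in the IR libraries. IR CD4 and IR DN cells again overlapped at the top and both CD8 libraries were at the bottom. The highest level was 1.92 times the lowest for Cd27, 4.80 times for Tnfrsf9 and 4.12 times for Tnfrsf18.

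**Figure D1:**
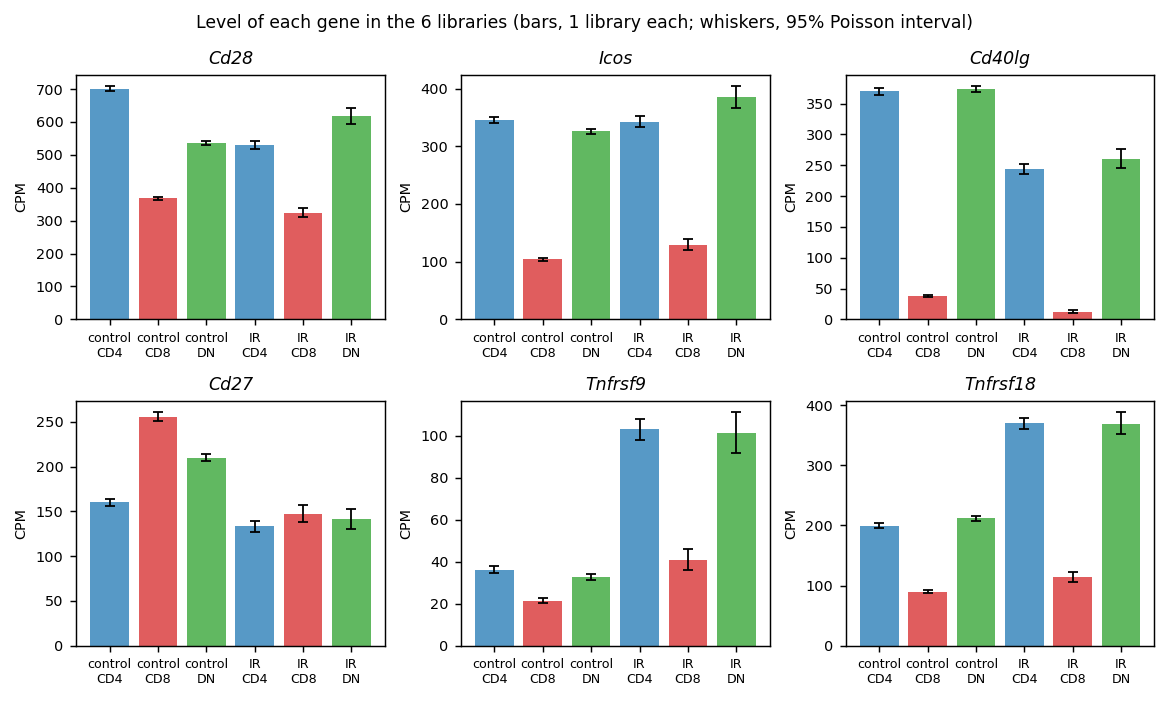
Level of each member in the 6 libraries, in CPM on a linear axis, with exact 95% Poisson intervals as whiskers. Each bar is 1 library. Cd40lg ranges from 373 CPM in control DN cells to 12.1 CPM in IR CD8 cells, and Tnfrsf9 and Tnfrsf18 are highest in the IR CD4 and IR DN libraries.

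DN cells were set against each single positive subset within a condition to see which members set them apart. A member was called when the library levels differed at least 2-fold and the higher level was at least 10 CPM, a rule applied to all genes. Against CD4 cells, 0 of the 6 members were called in the control kidney, where 2.75% of 8859 genes were called (1.35% higher and 1.4% lower in DN cells), and 0 of 6 in the IR kidney, where 7.3% of 8899 genes were called (4.84% higher and 2.46% lower). The log2 differences between DN and CD4 cells ran from -0.38 for Cd28 to 0.39 for Cd27 in the control kidney and from -0.03 for Tnfrsf9 to 0.22 for Cd28 in the IR kidney. Cd28 was therefore lower in DN than in CD4 cells of control kidneys and higher in those of IR kidneys, each time by less than 2-fold.

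Against CD8 cells several members were called. The list was chosen with earlier results of these data known, so its counts and medians describe these 6 genes only. In the control kidney 3 of 6 were called higher in DN cells, and 0 lower, beside 3.55% higher and 3.03% lower of 8969 genes (6.58% in all). Cd40lg was 10.0-fold higher (9.54 to 10.5), Icos 3.13-fold (3.04 to 3.24) and Tnfrsf18 2.36-fold (2.28 to 2.44). The helper ligand thus led the activation-induced receptors. In the IR kidney 4 of 6 were called higher in DN cells and 0 lower, beside 7.74% and 4.21% of 8985 genes (11.9% in all). Cd40lg was 21.5-fold higher (17.1 to 27.4), Tnfrsf18 3.25-fold (2.98 to 3.55), Icos 2.98-fold (2.74 to 3.24) and Tnfrsf9 2.47-fold (2.12 to 2.89). Tnfrsf9 was 1.53-fold higher in the control kidney (1.42 to 1.66), in the same direction, and the difference between the kidneys was not tested. Cells with a UMI of Ccr7, a gene of naive and recirculating T cells, made up 37.5% of IR CD8 and 0.594% of IR DN cells. With Ccr7 cells left out, the Tnfrsf9 difference in the IR kidney was 1.10 on the log2 scale, near the 2-fold line. That of Cd40lg was 3.83, against 4.43 with them. Cd28 was 1.46-fold higher in DN than in CD8 cells of control kidneys and 1.91-fold higher in IR kidneys, and Cd27 was 0.821 and 0.960 of the CD8 level. The median log2 difference over the 6 members was 0.93 in the control kidney and 1.44 in the IR kidney, against -0.02 and 0.10 over all genes.

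CD4 cells were set against the same CD8 libraries, so these ratios are not independent of those of DN cells. In the control kidney 3 of 6 members were called higher in CD4 cells and 0 lower, beside 2.61% and 1.75% of 8917 genes (4.36% in all), with Cd40lg 9.93-fold, Icos 3.32-fold and Tnfrsf18 2.22-fold higher. In the IR kidney 4 of 6 were called higher and 0 lower, beside 3.73% and 3.9% of 8749 genes (7.62% in all), with Cd40lg 20.1-fold, Tnfrsf18 3.26-fold, Icos 2.65-fold and Tnfrsf9 2.51-fold higher. Cd27 went the other way and was at 0.625 of the CD8 level in control CD4 cells and at 0.904 in IR CD4 cells, the reverse of the other 5. With mitochondrial, ribosomal protein and Malat1 features kept in the totals, the log2 difference of Cd27 in the IR kidney turned to 0.03 for CD4 and 0.29 for DN cells against CD8 cells.

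**Figure D2:**
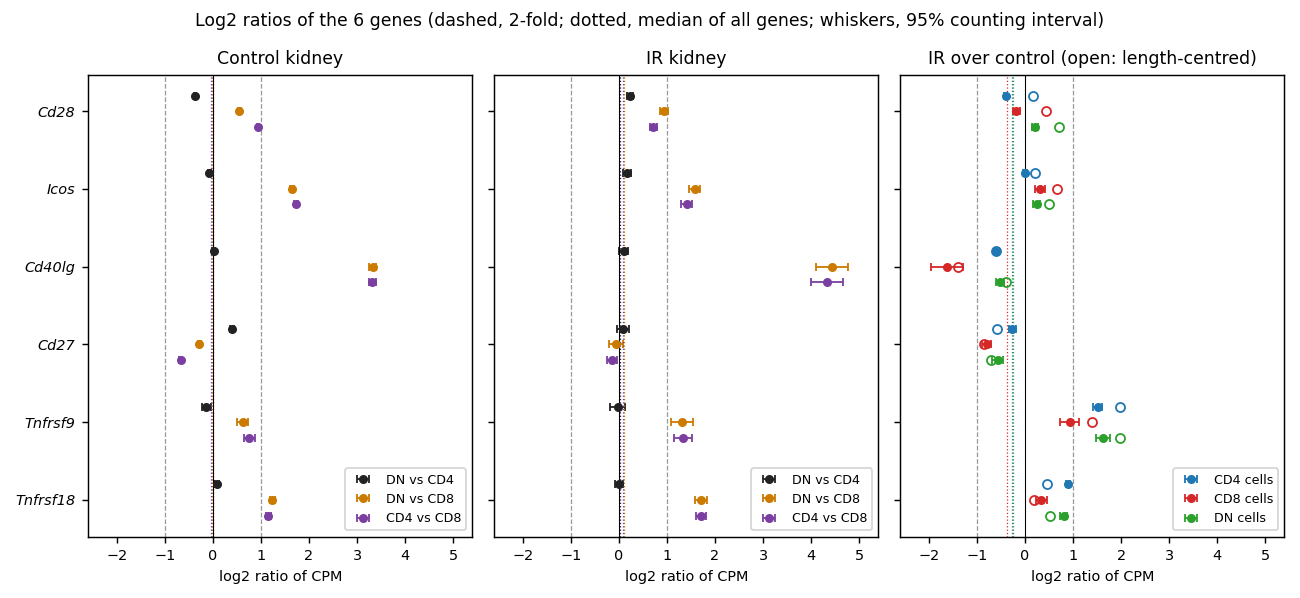
Log2 ratio of each member in the 9 comparisons of libraries, with 95% counting intervals; the dashed lines mark 2-fold either way. The DN and CD4 libraries lie close together for all 6 members, Cd40lg stands farthest from CD8 cells, and Tnfrsf9 is the member with the largest ratio of IR to control in each subset.

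To see what differed with injury, the IR library of a subset was set against its control library. Mitochondrial, ribosomal protein and Malat1 features, removed from the totals, took at most 26.6% of UMIs in the control libraries and 30.5% to 45.3% in the IR libraries. Ratios that changed sign with them kept are given below. In DN cells 1 of 6 members was called higher and 0 lower, beside 8.31% and 11.2% of 9201 genes (19.6% in all), and it was Tnfrsf9, 3.08-fold higher (2.77 to 3.42). In CD4 cells 1 of 6 was called higher and 0 lower, beside 7.71% and 15.1% of 9036 genes (22.8% in all), and it was again Tnfrsf9, 2.84-fold higher (2.66 to 3.04). 4-1BB is a receptor of recently activated cells, and whether activation differed between the conditions was not tested. In CD8 cells 1 of 6 was called lower and 0 higher, beside 17.7% and 7.93% of 9110 genes (25.6% in all), and it was Cd40lg, at 0.325 of its control level (0.256 to 0.408). The IR CD8 level rested on 78 UMIs, and at a minimum of 50 CPM Cd40lg was not called. In CD8 cells with a UMI of Cxcr6, a gene of tissue-resident T cells, Cd40lg was at 0.730 of its control level (0.476 to 1.07). Without a Cxcr6 UMI it was at 0.654 (0.466 to 0.906), and neither ratio passed 2-fold. These cells were not thinned, and 6752 control but 713 IR CD8 cells held a Cxcr6 UMI. Cd40lg was also lower in IR among the barcodes outside the T cell clusters. It was at 122 CPM (66.6 to 204) in the 35 control barcodes, above the level of control CD8 cells. The 304 IR barcodes held 0 UMIs, an upper limit of 8.90 CPM. Tnfrsf9 was 1.91-fold higher in IR CD8 cells (1.66 to 2.19), under the 2-fold line. A single call among 6 members is close to the share of all genes called, and the counts are not read as a result about the members. Tnfrsf18 was 1.75-fold higher in the IR library of DN cells, 1.85-fold in that of CD4 cells and 1.27-fold in that of CD8 cells. With the removed features kept in the totals the CD8 difference turned to -0.08 on the log2 scale.

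Cd40lg and Cd27 had lower levels in the IR library of every subset. Cd40lg was at 0.697 of the control level in DN cells and 0.658 in CD4 cells, and Cd27 was at 0.674, 0.832 and 0.576 in DN, CD4 and CD8 cells. Cells with a UMI of Ccr7, a chemokine receptor gene of naive and recirculating T cells, made up 16.8% of control CD8 and 37.5% of IR CD8 cells, and 7.51% and 20.1% of CD4 cells. On thinned cells the shares were 4.18% and 26.6% of CD8 and 1.74% and 10.8% of CD4 cells. Summed over 3 naive-like markers (Ccr7, Lef1 and S1pr1), the control and IR levels were 751 and 1742 CPM in CD8 cells and 563 and 969 CPM in CD4 cells. With the Ccr7 cells left out, a choice made after seeing the data, the log2 difference of Cd40lg between IR and control CD8 cells was -1.29, against -1.62 with them. On cells thinned to 500 UMIs it was -1.07, near the 2-fold line. Cells with a UMI of the cycling genes Mki67 or Top2a made up 13.0% to 21.6% of control libraries and 1.11% to 3.42% of the less deep IR libraries, and on thinned cells 2.01% to 4.70% and 0.470% to 1.39%. Without them Tnfrsf9 differed by 1.65, 1.55 and 1.01 on the log2 scale in DN, CD4 and CD8 cells.

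The ratios of IR to control also moved with gene structure, so each was centred on genes of like intronic length in 20 bins. Cd28, with 50438 intronic bases the longest member, had log2 ratios of 0.20 in DN cells, -0.40 in CD4 cells and -0.18 in CD8 cells, and centred values of 0.70, 0.17 and 0.44. The sign of Cd28 in CD4 and CD8 cells thus depended on the centring, and with the removed features kept its ratio in DN cells was 0.03. Icos had log2 ratios of 0.24, -0.01 and 0.32 in DN, CD4 and CD8 cells and centred values of 0.49, 0.20 and 0.66, and its ratio in CD8 cells was -0.11 with the removed features kept. Tnfrsf9 kept its direction, with centred values of 1.99, 1.97 and 1.40, and so did Cd40lg, with -0.40, -0.61 and -1.39. Tnfrsf18 and Cd27, with only 1208 and 2061 intronic bases, were centred to 0.52, 0.45 and 0.20 and to -0.72, -0.59 and -0.86. The median over all genes was -0.26, -0.26 and -0.38 before centring.

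The share of cells with a UMI shows whether a level is spread over many cells. Because depth differed, each cell was thinned to 500 retained UMIs, which lost no cell. Thinned, Cd28 was found in 27.7%, 15.3% and 23.0% of control CD4, CD8 and DN cells and in 21.1%, 13.5% and 25.7% of IR cells. Icos was found in 14.4%, 4.84% and 13.7% of control and in 13.9%, 5.73% and 15.5% of IR cells. Cd40lg was found in 16.4%, 1.46% and 16.4% of control and in 10.2%, 0.663% and 12.1% of IR cells. These shares followed the levels, with the CD8 libraries lowest. Cd27 was found in 7.44%, 12.5% and 10.1% of control and in 6.66%, 6.82% and 6.26% of IR cells. Tnfrsf9 was found in 1.34%, 1.04% and 1.48% of control and in 4.55%, 1.69% and 4.73% of IR cells. Tnfrsf18 was found in 8.86%, 4.27% and 9.99% of control and in 15.1%, 5.43% and 16.2% of IR cells.

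The same shares were taken in the 339 barcodes that clustered apart from T cells, 304 of them from IR libraries and 35 from control libraries. Whether their UMIs came from free RNA was not tested. They had a median of 1577 UMIs, and after thinning 2.36% of them held a Cd28 UMI, 0.295% a Tnfrsf18 UMI, and 0.590% (0.0715% to 2.11%) a UMI of each of the other 4 members. Cd40lg in both CD8 libraries, and Tnfrsf9 in the 3 control libraries and in IR CD8 cells, lay within that interval, so at this depth these shares could not be told apart from those of the barcodes. Taken by condition, Tnfrsf9 was found in 0 of 35 control barcodes (0% to 10.0%) and in 0.658% of IR barcodes (0.0798% to 2.36%), and Cd40lg in 5.71% of control barcodes (2 of 35, at most 19.2%) and in 0 of 304 IR barcodes (0% to 1.21%), and the same shares lay within the interval of their own condition. The 35 control barcodes gave wide intervals, which also held most control shares of the other members: Cd40lg in CD4 and DN cells, Cd27 and Tnfrsf18 in all 3 libraries (at most 14.9% for each), Cd28 in CD8 and DN cells (3.20% to 26.7%) and Icos in CD8 cells (at most 10.0%). Before thinning, when the control cells were deeper, Cd28 was found in 62.6% to 84.9% of control and 24.2% to 45.8% of IR cells, and Tnfrsf9 in 7.26% to 12.1% and 3.51% to 10.8%. Before thinning 4.72% and 1.18% of the barcodes outside the T cell clusters held a UMI of these 2 genes.

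**Figure D3:**
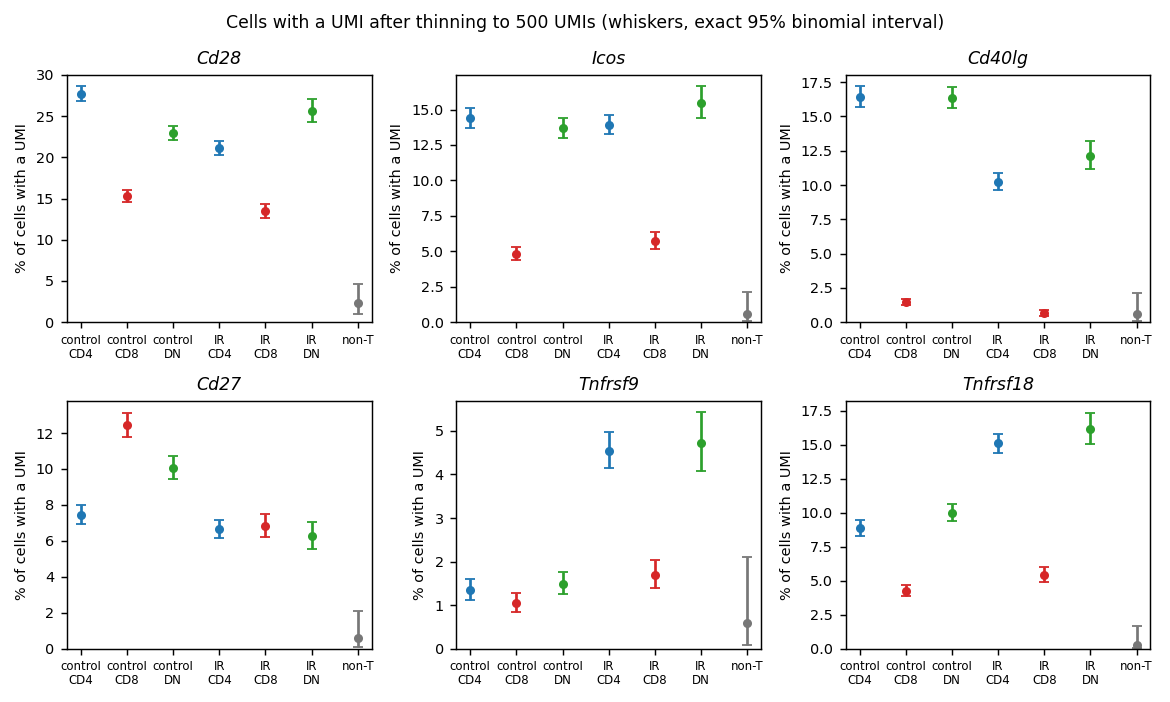
Share of cells with a UMI of each member in the 6 libraries, in percent, after thinning each cell to 500 UMIs, with exact 95% Clopper-Pearson intervals; barcodes that clustered apart from T cells are drawn for comparison. Tnfrsf9 lies above the interval of these barcodes only in IR CD4 (4.55%) and IR DN cells (4.73%), while Cd28 is above the interval of the pooled barcodes in all libraries.

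Most cells showed few members at a time. After thinning, no member was found in 43.9% of control CD4, 66.2% of control CD8 and 45.4% of control DN cells, and in 47.0%, 70.3% and 41.7% of the IR cells. At least 2 members were found together in 17.3%, 5.23% and 16.8% of control and in 15.4%, 3.93% and 18.6% of IR cells. At least 3 were found in 2.52%, 0.355% and 2.87% of control and 2.85%, 0.190% and 3.22% of IR cells. The DN and CD4 libraries were again close, and CD8 cells carried the fewest members. No cell had all 6 at this depth.

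Pairs of members were compared with the number of cells that the product of their shares would give. Of the 90 pairs and libraries, 76 had a product of 10 cells or more, and in these the observed number ranged from 0.555 to 1.82 times the product. The interval lay above 1 in 8 of them and below 1 in 1. Cd28 and Icos were found together in 410 control CD4 cells, 1.11 times the product, in 360 control DN cells, 1.29 times, and in 369 IR CD4 cells, 1.24 times. Both genes encode receptors for B7 family ligands. The pair of TNF receptors Tnfrsf9 and Tnfrsf18 had the highest ratios among these: 20 control CD4 cells held both against a product of 11.0, a ratio of 1.82 (1.11 to 2.81), and 111 IR CD4 cells against 69.5, a ratio of 1.60 (1.31 to 1.92). Both genes encode TRAF-binding receptors on chromosome 4. In IR CD4 cells Cd40lg was found together with Icos at 1.24 times and with Cd28 at 1.16 times the product. The pair below its product was Cd40lg and Tnfrsf9 in control DN cells, with 12 cells and a ratio of 0.555. The remaining ratio above its product was Icos and Tnfrsf18 in control CD4 cells, at 1.19. Thinning to 1000 UMIs left out 48.0% of IR DN and 58.1% of IR CD8 cells, and at most 13.1% of any other library. At this depth 84 pairs and libraries had a product of 10 cells or more, with the interval above 1 in 11 and below 1 in 5. Of the 8 above 1 at 500 UMIs, 7 were above it again, and Icos with Tnfrsf18 in control CD4 cells was not (1.10, 0.993 to 1.21). Tnfrsf9 with Tnfrsf18 in IR DN cells was then above 1 (1.33, 1.04 to 1.66), and Cd40lg with Tnfrsf9 was below 1 in control DN cells (0.643) and also in control CD4 cells (0.720). The other 3 below 1 were Icos with Tnfrsf9 in control DN (0.740, against 1.38 at 500 UMIs) and IR DN cells (0.647) and Cd40lg with Cd27 in control CD4 cells (0.876). Without thinning, where cells of unlike depth are mixed, 49 of 86 were above 1.

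**Figure D4:**
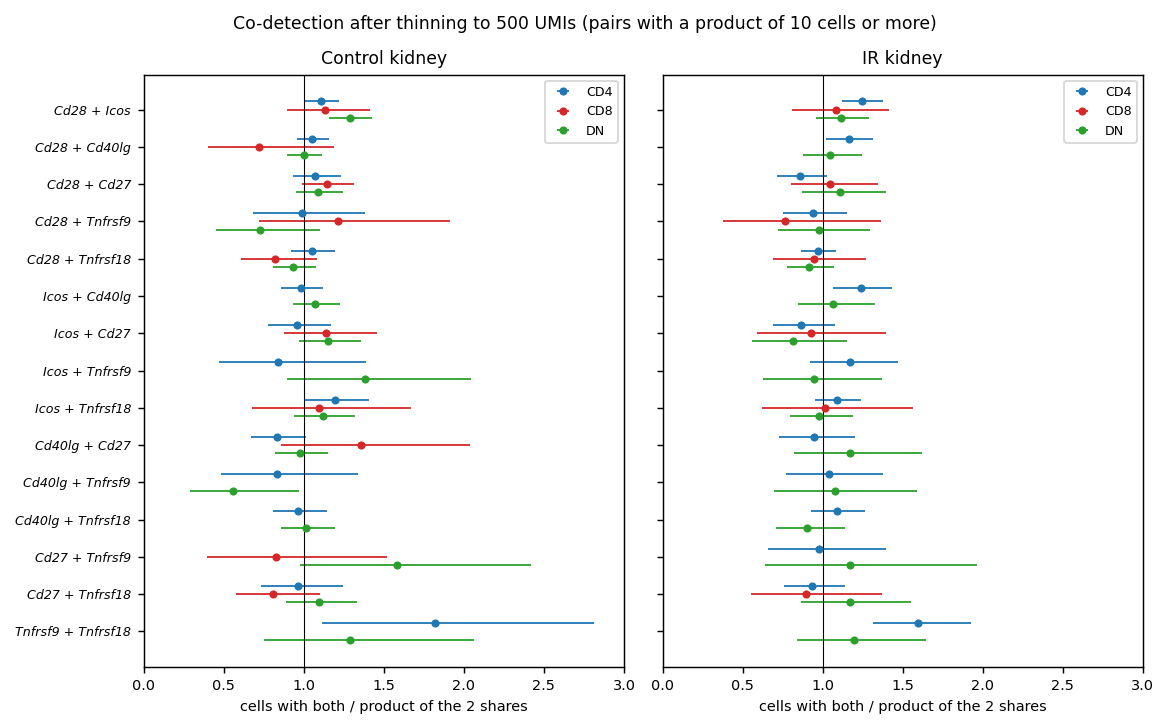
Cells in which 2 members were both found after thinning, divided by the product of their shares, for the pairs with a product of 10 cells or more in each library; 1 means as many as the product gives. Tnfrsf9 with Tnfrsf18 has the highest ratio among them, 1.82 in control CD4 cells and 1.60 in IR CD4 cells.

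Within a library, member levels were compared between cells with and without a UMI of 10 other genes that mark T cell states. Foxp3, the transcription factor of regulatory T cells, was found in 343 control CD4 cells (3.71%) and 309 IR CD4 cells (3.06%), and in at most 4 cells of any other library. On thinned cells the order was reversed, with 66 of 9255 control and 125 of 10108 IR CD4 cells. The Foxp3 level was 18.2 CPM in control and 28.4 CPM in IR CD4 cells. Tnfrsf9 was at 189 CPM in Foxp3 cells and 29.4 CPM in the remaining control CD4 cells, a 6.42-fold difference, and at 457 and 90.9 CPM in IR CD4 cells, a 5.03-fold difference. Tnfrsf18 was at 477 and 187 CPM in control CD4 cells (2.55-fold) and at 852 and 353 CPM in IR CD4 cells (2.41-fold). Foxp3 cells thus carried more of both receptors in each condition. Icos was 2.08-fold and Cd27 1.87-fold higher in Foxp3 cells of the control kidney, and 1.38-fold and 1.85-fold higher in those of the IR kidney. Cd40lg ran the other way, at 111 against 381 CPM in the control kidney and 47.1 against 250.2 CPM in the IR kidney. Cd28 was at 0.778 and 0.617 of the level in the remaining cells.

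A cell with more UMIs is more likely to show a Foxp3 UMI, so the split was repeated on thinned cells. Tnfrsf9 was then 5.09-fold (1.63 to 12.2) higher in Foxp3 cells of the control and 6.33-fold (4.47 to 8.74) of the IR kidney. Cd40lg was at 0.0785 (0.00199 to 0.438) and 0.0686 (0.00174 to 0.383) of the level in other cells, each from 1 UMI. The IR to control difference in Tnfrsf9 was present on both sides of this split. Before thinning it was 2.42-fold (2.05 to 2.85) between Foxp3 cells, and 3.09-fold (2.87 to 3.33) between cells without a Foxp3 UMI. On thinned cells, added after seeing the data, it was 4.22-fold (1.67 to 13.7) and 3.40-fold (2.81 to 4.14), so the order of the sides changed and neither was set above the other. Tnfrsf18 was 1.78-fold and 1.89-fold higher in IR cells on the respective sides before thinning. The deeper control cells reveal more Foxp3 UMIs, so the cells without one are not the same population in each condition.

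**Figure D5:**
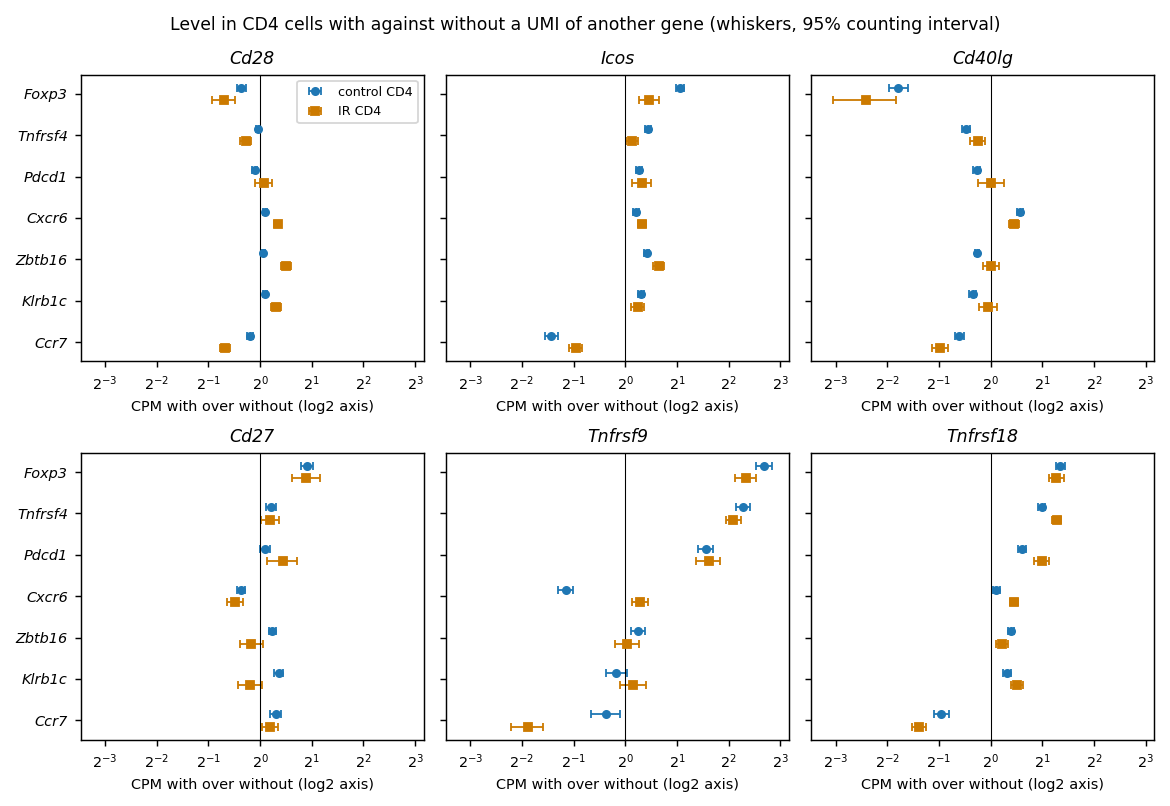
Ratio of the level of each member between CD4 cells with and without a UMI of a state gene, on a log axis, in the control and IR libraries with 95% counting intervals; a ratio of 1 means equal levels. Tnfrsf9 is 6.42 and 5.03 times as high in Foxp3 cells, and Cd40lg is below 1 there in both conditions.

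OX40 (Tnfrsf4) marks activated and regulatory cells. CD4 cells with its UMI had Tnfrsf9 at 117 CPM against 24.2 CPM in the control kidney, 4.82-fold higher, and at 308 against 72.3 CPM in the IR kidney, 4.26-fold higher. On thinned cells these were 4.55-fold (2.42 to 7.91) and 5.31-fold (4.34 to 6.46). Tnfrsf18 was 1.99-fold and 2.43-fold higher in the same cells. CD4 cells with a UMI of Pdcd1, the gene of the inhibitory receptor PD-1, had 2.94-fold more Tnfrsf9 in the control and 3.05-fold more in the IR kidney, and 3.96-fold (lower bound 1.56) and 4.52-fold (lower bound 3.04) on thinned cells. The reverse held in Ccr7 cells: Icos was at 0.370 and 0.515 of the level in other CD4 cells of the control and IR kidney, Tnfrsf18 at 0.516 and 0.384, and Tnfrsf9 at 0.769 and 0.269. On thinned cells Icos was at 0.211 (0.0775 to 0.461) and 0.425 (0.337 to 0.531), and Tnfrsf9 in the control kidney, with 2 UMIs in Ccr7 cells, was at 0.809 (0.0970 to 2.98), an interval that holds 1.

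Cxcr6 marks tissue-resident T cells. Control CD4 cells with a Cxcr6 UMI had Tnfrsf9 at 0.449 of the level in other cells, and those of the IR kidney had it at 1.22. In DN cells the same ratios were 0.408 and 1.04. On thinned cells the control CD4 ratio was 0.709 (0.465 to 1.06) and the control DN ratio 0.916 (0.637 to 1.31), so the low control ratios did not stand beyond counting error at equal depth. The IR to control difference in Tnfrsf9 was 3.39-fold (2.87 to 3.97) between DN cells with a Cxcr6 UMI and 1.33-fold (1.11 to 1.59) between those without, and 4.02-fold and 1.48-fold between CD4 cells. The control DN library held 542 cells without a Cxcr6 UMI and the IR DN library 2672. On thinned cells, a split added after seeing the data, it was 3.70-fold (2.41 to 5.64) with and 3.08-fold (2.34 to 4.07) without a Cxcr6 UMI in DN cells. It was 6.58-fold (4.37 to 10.1) and 3.03-fold (2.45 to 3.77) in CD4 cells. In CD8 cells it was 4.77-fold (2.15 to 10.3) with a Cxcr6 UMI, from 13 IR and 18 control UMIs, and 1.46-fold (1.08 to 1.98) without. Cd40lg was 3.08-fold higher in control CD8 cells with a Cxcr6 UMI and 3.44-fold in IR CD8 cells, and after thinning 1.61-fold (1.14 to 2.25) and 1.68-fold (0.519 to 4.21).

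The other genes of the pathway were followed as a list of 54 in 5 roles, beside the same shares of genes called as for the members. DN cells against CD4 cells had 0 genes called higher and 7 lower of 42 at 10 CPM in the control kidney, and 0 higher and 7 lower of 44 in the IR kidney. Among receptors, Tnfrsf4 had log2 differences of -3.01 in the control and -3.06 in the IR kidney, Ctla4 of -1.75 and -1.83, and Cd5, a receptor that dampens T cell receptor signals, of -1.74 and -1.77. Tnfrsf4 was at 60.1, 4.19 and 7.47 CPM in control CD4, CD8 and DN cells and at 159.8, 8.07 and 19.2 CPM in the IR libraries, which set it apart from the adjacent Tnfrsf18. The median log2 difference over the list was -0.11 in both kidneys, against -0.00 and 0.01 over all genes.

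DN cells against CD8 cells had 1 gene called higher and 7 lower of 41 in the control kidney, and 10 higher and 5 lower of 43 in the IR kidney. Tnfrsf25, which encodes the receptor DR3, was higher in DN cells by 2.22 and 2.83 on the log2 scale, and Zc3h12d, of the Regnase family of RNA-binding proteins, had log2 differences of -1.76 and -2.52. CD4 cells against CD8 cells had 3 higher and 1 lower of 42 in the control kidney, and 6 higher and 0 lower of 43 in the IR kidney. Tnfrsf4 led both, with 3.84 and 4.31 on the log2 scale. Tnfsf11, which encodes the ligand RANKL, was 2.05 and 2.56 higher in CD4 cells.

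IR against control gave 4 genes called higher and 6 lower of 44 in DN cells, 5 and 8 of 43 in CD4 cells, and 1 and 11 of 40 in CD8 cells. These were 22.7%, 30.2% and 30% of the list at 10 CPM, beside 19.6%, 22.8% and 25.6% of all genes, and as for the members the counts are not read as a result about the pathway. Tnfrsf4 was called higher in DN cells (1.36) and CD4 cells (1.41), as were Lta, which encodes lymphotoxin α (1.53 and 1.18), and Zc3h12a, which encodes Regnase-1 (1.33 and 1.12). Centred by intronic length, the values in CD4 cells were 0.97 for Tnfrsf4 and 0.74 for Lta. Regnase-1 is known to degrade Icos and Tnfrsf4 transcripts. Cd226 and Slamf1, a pair of costimulatory receptors outside the 6, were called lower in every subset, with log2 ratios of -1.44, -1.94 and -1.84 for Cd226 and -2.01, -1.72 and -1.80 for Slamf1 in DN, CD4 and CD8 cells. Centred by intronic length, these were -0.79, -1.18 and -1.07 for Cd226 and -1.64, -1.38 and -1.33 for Slamf1. Of 7 ligands at 10 CPM in CD8 cells, 5 were called lower and 0 higher, beside 17.7% and 7.93% of all genes. Among the 5 were Tnfsf10 (-1.99), Fasl (-1.78) and Tnfsf11 (-1.77). Centred by intronic length, the median over the CD8 ligands was -1.31, against -1.68 before. The same role had 2 higher and 2 lower of 9 in DN cells, and 2 higher and 3 lower of 8 in CD4 cells.

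Most partners that the members bind were under 10 CPM in these T cell libraries. Cd40 was at or below 0.775 CPM in every library, Tnfsf18, the GITR ligand gene, at or below 0.388 CPM, Cd70, the CD27 ligand gene, at or below 6.16 CPM, and Tnfsf9, the 4-1BB ligand gene, at or below 8.47 CPM. Icosl reached 10 CPM only in IR DN cells, at 16.4 CPM. Cd86, a CD28 ligand gene, was over 10 CPM in 5 of 6 libraries, at 32.8, 73.2 and 16.4 CPM in control CD4, CD8 and DN cells and at 15.2, 22.8 and 8.21 CPM in the IR libraries.

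The genes whose level over the 6 libraries ran most like each member were found by Pearson's r of log2(CPM + 1), which describes 6 points that share a subset, a condition and a depth. Cd40lg was most like Maf (0.998), Mmp9 (0.996) and Zbtb7b (0.994). Zbtb7b encodes ThPOK, the transcription factor of the CD4 lineage, and was at 60.6 CPM in control DN cells against 9.11 CPM in control CD8 cells. Icos was most like Ldhb (0.993), Furin (0.991) and Il4 (0.987), and Cd28 like Golph3 (0.996), Ubl3 (0.971) and Camk4 (0.961). Il4 encodes the helper cytokine interleukin-4, and Camk4 a calcium-dependent kinase. Tnfrsf9 was most like Gabpb1 (0.987), Isg20 (0.983) and Irf2bp2 (0.983), and Tnfrsf18 like Mapkapk2 (0.993), Snx18 (0.993) and Tmbim4 (0.992). Cd27 was most like Zcchc8 (0.996), Rnf167 (0.984) and Fgfr1op2 (0.983). Among the members themselves r was highest for Cd28 with Cd40lg (0.943) and lowest for Cd27 with Tnfrsf9 (-0.845).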

How the data were processed

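The authors aligned 10x Genomics 3′ libraries with Cell Ranger 6.0.1 to mm10, per the labels, and deposited raw UMI counts per gene and barcode. The matrix headers name 5.0.1 for the control libraries. From these counts, barcodes with under 500 features, over 20% mitochondrial UMIs or among the top 5% by UMIs in their library (the study's doublet filter) were left out. Clusters in which under 50% of barcodes held a Cd3d, Cd3e or Cd3g UMI were also left out (2000 variable genes, 30 components, 15 neighbours, Leiden resolution 1, scanpy 1.11.5), 339 barcodes in all. In all, 104 mitochondrial, ribosomal protein and Malat1 features, 21.0% to 45.3% of UMIs, were removed from totals, which left 4386054 to 60783228 UMIs per library. UMIs were summed per library, with exact 95% Poisson intervals for levels and ratios and Clopper-Pearson intervals for shares (scipy 1.17.1). A gene at 0 was set to 3 counts in ratios. TMM factors came from edgeR 4.0.16 as an alternative scaling only, and no count test was run because each group is 1 library. Ratios were tried under 16 alternatives, and 2 more, without S100a8 or S100a9 barcodes and without Ccr7 cells, were chosen after seeing the data, as were the thinned shares of Ccr7 and cycling cells. Some genes of the lists, and an alternative that needs 1 of them, are not reported here. Gene positions and the length of introns were read from the GENCODE M21 annotation of GRCm38, which matched 32235 of 32285 features. The members, the pathway list and the marker lists were chosen with earlier results of these data known. Named genes were the 6 members, at most 3 called pathway genes per role and direction, the 3 genes most correlated with a member at 50 CPM or more, and the 5 genes most enriched in cells with a member's UMI (30 UMIs and 50 CPM or more). Ligand genes under 10 CPM were named after their values were seen. The rule for calling ratios and the ratio interval were tried on simulated Poisson counts for IR against control DN cells, with counting error only.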

Additional observations from a re-analysis of the deposited data

Results flagged for a closer look

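Cd28 was the member whose IR to control difference lay on either side of 0 in different subsets with counting intervals that excluded 0: the log2 ratio was 0.20 in DN cells, -0.40 in CD4 cells and -0.18 in CD8 cells. Icos also changed sign, with 0.24 in DN and 0.32 in CD8 cells and -0.01 in CD4 cells, but the interval of the last (-0.05 to 0.04) held 0. With 1 library per group the difference between subsets was not tested. When each ratio was centred on genes of like intronic length, all 3 were above 0 (0.70, 0.17 and 0.44), and the order of the subsets stayed the same. The opposite signs thus depended on the centring. With the removed features kept, the ratios were 0.03, -0.76 and -0.61, still on either side of 0 but with the DN ratio close to it.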

How the results depend on the processing

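All 17 called member ratios kept their direction under each of 16 alternatives that could change a ratio. Tnfrsf9 in DN against CD8 cells of the IR kidney was 1.30 on the log2 scale and 1.10 without Ccr7 cells, an alternative chosen after seeing the data. Over all member log2 ratios, 697 of 864 stayed within their counting interval. Of the log2 ratios between cells with and without a UMI of another gene, 248 of 429 moved beyond it on thinned cells, and 0 of those called reversed. The number of members called moved by over 1.5 times in 2 comparisons. In 2 more, Cd28 (0.93 on the log2 scale in each) passed 2-fold with the removed features kept, on thinned cells and as a mean over cells, so that 4 in place of 3 members were called in control CD4 against CD8 cells and 5 in place of 4 in IR DN against CD8 cells. IR against control CD4 cells had 2 in place of 1 without Ccr7 cells, where Tnfrsf18 reached 1.02 on the log2 scale. IR against control CD8 cells had 2 in place of 1 with TMM scaling, with the removed features kept and with centring by intronic length. They also had 2 without Ccr7 cells and without cycling cells. At a minimum of 50 CPM they had 0, as Cd40lg lay under that level. The pathway genes called moved from 8 to 13 with no minimum and to 5 at 50 CPM in DN against CD8 cells of the control kidney, and from 4 to 8 and 2 in CD4 against CD8 cells. In the IR kidney they moved from 15 to 8 at 50 CPM in DN against CD8 cells, and from 6 to 11 with no minimum and 3 at 50 CPM in CD4 against CD8 cells. IR against control went from 10 to 6 at 50 CPM in DN cells and from 13 to 8 with centring in CD4 cells. The cause of these moves was not tested. Keeping the removed features moved the median of all genes by -0.18, -0.36 and -0.42 in IR against control DN, CD4 and CD8 cells, and by 0.11, 0.17, 0.34 and 0.17 in control CD4 against CD8 cells and in IR DN against CD4, DN against CD8 and CD4 against CD8 cells. TMM moved it by -0.15 in IR DN against CD8 cells and 0.10 in IR against control CD8 cells. No paired analysis was possible because each group is 1 library, and no result comes from a test. Depth limits rare transcripts most in the IR DN library, where 3 counts equal 0.684 CPM.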

Other observations

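Among the cells with a member's UMI, those with Tnfrsf9 held the largest fold of any gene with 30 UMIs and 50 CPM or more. In control CD4 cells they had the chemokine gene Ccl1 at 161 CPM against 5.03 CPM, 32.1-fold higher, and in control DN cells at 241 against 7.15 CPM, 33.7-fold higher. In IR CD4 cells the difference in Ccl1 was 5.16-fold, and in IR DN cells 5.17-fold. Control CD4 cells with Tnfrsf9 also had 7.37-fold more Tnfrsf4 and 5.30-fold more Foxp3. In IR CD4 cells Areg, which encodes the tissue repair factor amphiregulin, was 7.50-fold and Foxp3 4.27-fold higher. Irf8, which encodes a transcription factor, was 4.41-fold higher in control CD4, 4.15-fold in control CD8 and 3.61-fold in control DN cells with a Tnfrsf9 UMI. In IR CD8 cells the chemokine gene Xcl1 was 5.46-fold higher. In IR DN cells the granzyme gene Gzmc was 6.74-fold higher. These folds are between cells split by a detected UMI, and cells with more UMIs are more often detected.

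Cells with other members were compared in the same way. Control DN cells with an Icos UMI had Ccl1 4.22-fold higher. Control CD4 cells with an Icos UMI had Ctla4 2.31-fold, Il4 2.08-fold and Ikzf2, which encodes Helios, 2.04-fold higher. Cells with a Cd40lg UMI had the cytokine gene Il2 1.70-fold higher in control CD4 cells and 2.44-fold in control CD8 cells. Cells with a Tnfrsf18 UMI had Csf2, which encodes GM-CSF, 3.89-fold higher in IR DN cells, and Pdcd1 3.34-fold higher in IR CD8 cells. In IR CD4 cells the neutrophil genes S100a9 and S100a8 led with 5.82-fold and 5.48-fold. Of their 1325 UMIs in that library, 1027 were in 5 barcodes that also held a Tnfrsf18 UMI. Leaving out the barcodes with these UMIs, an alternative chosen after seeing the data, moved 0 of 54 member ratios beyond the counting interval.

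Barcodes that clustered apart from T cells held the members at unlike levels. The 304 such barcodes of the IR libraries had Cd28 at 14.5 CPM and Cd40lg at 0, while the 35 of the control libraries had Cd28 at 182.7 CPM and Cd40lg at 122 CPM. Tnfrsf9 was at 12.1 CPM (3.92 to 28.1) in the IR barcodes and at 0 UMIs in the control barcodes, with an upper limit of 32.1 CPM.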
